A study of Mus musculus with 6 samples.

Results

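Feeder-rich and feeder-poor are used here as names for the upper and lower 3 of 6 embryonic stem cell cultures, ranked by how brightly their arrays showed fibroblast genes. Embryonic stem cells of this series were grown on a layer of mouse embryonic fibroblasts, so each RNA sample could hold fibroblast RNA beside stem cell RNA. For each array the log2 quantile-normalized intensity was averaged over all 35 probes of 14 fibroblast genes, Col1a1, Col1a2, Col3a1, Col5a1, Col5a2, Fn1, Thy1, Lum, Dcn, Lox, Loxl1, Lgals1, Vim and Tnc. The 3 arrays with the highest mean, shChd9 1, control 1 and shChd9 3, formed the feeder-rich group, and control 3, shChd9 2 and control 2 formed the feeder-poor group; the members were thus chosen by measured marker levels. All 6 arrays of the series are therefore members. The labels give no fibroblast content for any sample, so the names stand for this ranking alone.

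The study transfected mouse embryonic stem cells by electroporation with pHYPER short hairpin RNA vectors. 3 samples received the hairpin against Chd9, a chromodomain helicase of the chromatin remodeller family, and 3 were labelled as control transfections. Puromycin was applied from 24 h after transfection and kept on for 48 h, and the cells were then collected. Both transfections shared the same culture: 37 °C and 5% CO2, medium with 15% foetal bovine serum, leukemia inhibitory factor (LIF) in excess, and fibroblasts whose division had been stopped with mitomycin C. The feeder-rich group held 2 shChd9 samples and 1 control sample, and the feeder-poor group 1 shChd9 sample and 2 control samples. Sample numbers follow the order of deposit, and the labels do not say that the 3 samples of a transfection came from separate cultures, so a spread between arrays may be technical. Which of the vectors' sequences served as control, the cell line and the source of the fibroblasts were not given in the labels.

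Feeder fibroblasts are seeded as a dividing-arrested layer that gives stem cells a surface of matrix proteins and a supply of secreted factors, LIF among them. They make fibrillar collagens, fibronectin, proteoglycans, matrix proteases, chemokines and growth factors, and they display major histocompatibility complex class I proteins, which mouse embryonic stem cells carry at low density. In bulk RNA, fewer cells of a type and less RNA per cell cannot be told apart, so a gene's level on these arrays is a level in the mixed culture.

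The arrays, all on 1 slide, detected 17734 to 18457 of 45281 probes each, which is 39.2% to 40.8%, and the raw mean intensity ranged from 356 to 464. Chd9 itself measured 6.56, 6.64 and 6.32 on the log2 scale in shChd9 1, shChd9 3 and shChd9 2, against 7.36, 7.80 and 7.74 in control 1, control 3 and control 2. Every shChd9 array lay below every control array. All values below are log2 intensities after background correction and quantile normalization, except the marker mean, which was taken on the authors' own normalized values. A difference is the mean of the 3 feeder-rich arrays minus the mean of the 3 feeder-poor arrays, so that 1 on the log2 scale is 2-fold.

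The marker mean that set the groups was 8.26 in shChd9 1, 8.10 in control 1 and 8.002 in shChd9 3, against 7.90 in control 3, 7.80 in shChd9 2 and 7.65 in control 2. The step at the boundary, between shChd9 3 and control 3, was 0.10, and the other steps were 0.15, 0.10, 0.11 and 0.14. The boundary therefore fell at no gap wider than the others, and the arrays form a graded series rather than separate sets. By label, the marker mean was 8.02 ± 0.23 in shChd9 samples and 7.89 ± 0.23 in control samples (SD, n = 3 each), a difference of 0.13. In each pair of arrays with the same number the shChd9 sample had the higher marker mean, by 0.15 for number 1, 0.14 for number 2 and 0.10 for number 3. No test is given, because these values set the groups. The groups kept the same 6 arrays when only Dcn, Lum, Thy1, Tnc and Lgals1 were used, when each gene counted with 1 probe, and on the background-corrected values. With the median over probes in place of the mean, 4 of 6 arrays kept their group, because shChd9 2 and shChd9 3 changed places.

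**Figure D1:**
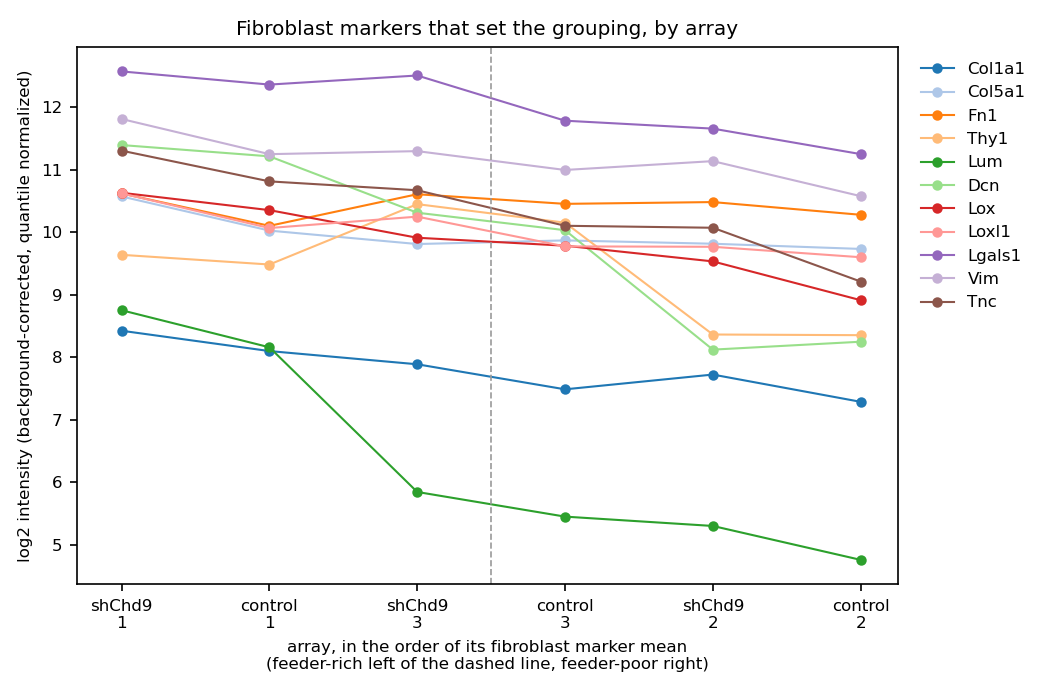
Log2 intensity of the 11 marker genes that passed the detection filter (y axis) on the 6 arrays (x axis), ordered by the marker mean with the feeder-rich arrays left of the dashed line; each line joins the values of 1 gene. Lum, Dcn and Tnc are higher on each feeder-rich array than on any feeder-poor array, while Thy1 is high on shChd9 3 and control 3 and Fn1 is nearly level.

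Of the 14 marker genes, 11 passed the detection filter and 8 of them had no overlap between the groups, which follows from the choice of arrays and is given as a description. Col1a2, Col3a1 and Col5a2 did not pass it. Of the 35 probes, 14 were detected on all 6 arrays and 11 on none. In the order shChd9 1, control 1 and shChd9 3, against control 3, shChd9 2 and control 2, the array order used throughout, Lum, a collagen-binding proteoglycan, measured 8.75, 8.16 and 5.84 on the feeder-rich arrays, against 5.45, 5.30 and 4.76 on the feeder-poor arrays. Dcn, a related proteoglycan, measured 11.40, 11.22 and 10.31, against 10.03, 8.12 and 8.25. Lum set shChd9 1 and control 1 apart from the other 4 arrays, whereas Dcn set shChd9 2 and control 2 apart. Thy1, a surface protein used to sort fibroblasts, measured 9.64, 9.48 and 10.45, against 10.15, 8.36 and 8.35, and its highest arrays were the pair on either side of the boundary. Tnc, an adhesion-modulating matrix protein, measured 11.31, 10.81 and 10.67, against 10.10, 10.07 and 9.21, and Lgals1, a galactoside-binding lectin, measured 12.57, 12.36 and 12.51, against 11.79, 11.66 and 11.25. Fn1, fibronectin, differed by 0.04 and its groups overlapped. Dcn, Thy1, Tnc and Lgals1 were detected on all 6 arrays, and Lum on 3 of 3 feeder-rich and 2 of 3 feeder-poor arrays. Of the 4 tested Tnc probes, the one with the smallest difference gave -0.02.

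Across 10183 genes other than the markers, the difference between the groups lay mostly on 1 side when it was large. The groups did not overlap and feeder-rich was higher for 767 genes, 7.53% of those tested, and lower for 785 genes, 7.71%. At 2-fold or more, 56 genes were higher, 0.55%, and 1 was lower, 0.00982%. These shares come from arrays sorted on correlated genes and carry no test. The median difference over all genes was -0.02, and 99.2% of genes lay within 2-fold. At 1.5-fold, 265 genes were higher and 82 lower without overlap. The 2-fold count depended on single arrays: it was 29 without shChd9 1, 124 without control 3, 125 without shChd9 3, and 169 with both arrays at the boundary left out, a set of 4 arrays that was chosen after the data were seen. The count at least 2-fold lower was 10 without control 1, 2 without control 3, 9 without shChd9 2 and 30 without shChd9 3. With any 1 array left out, 1053 to 1438 genes were higher and 1142 to 1613 lower at any size, since fewer arrays overlap less by construction. With median scaling in place of quantile normalization the split was 477 higher and 753 lower.

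The 56 genes did not all step at the boundary. Their largest drop between neighbouring arrays was from control 3 to shChd9 2 in 20 genes, from shChd9 3 to control 3, the boundary itself, in 14, from control 1 to shChd9 3 in 12, from shChd9 1 to control 1 in 9, and from shChd9 2 to control 2 in 1. 25 of the 56 followed exactly the order of the marker mean, part of which was fixed by choosing genes without overlap. Over all 10183 genes, 84 followed that order and 34 the opposite order. Because transfection and group were unevenly combined, the difference was also taken within each transfection, as the mean of shChd9 1 and shChd9 3 minus shChd9 2, and as control 1 minus the mean of control 3 and control 2. 31 of the 56 were at least 2-fold higher in both. Over all genes, 41 were at least 2-fold higher and 1 was at least 2-fold lower in both.

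**Figure D2:**
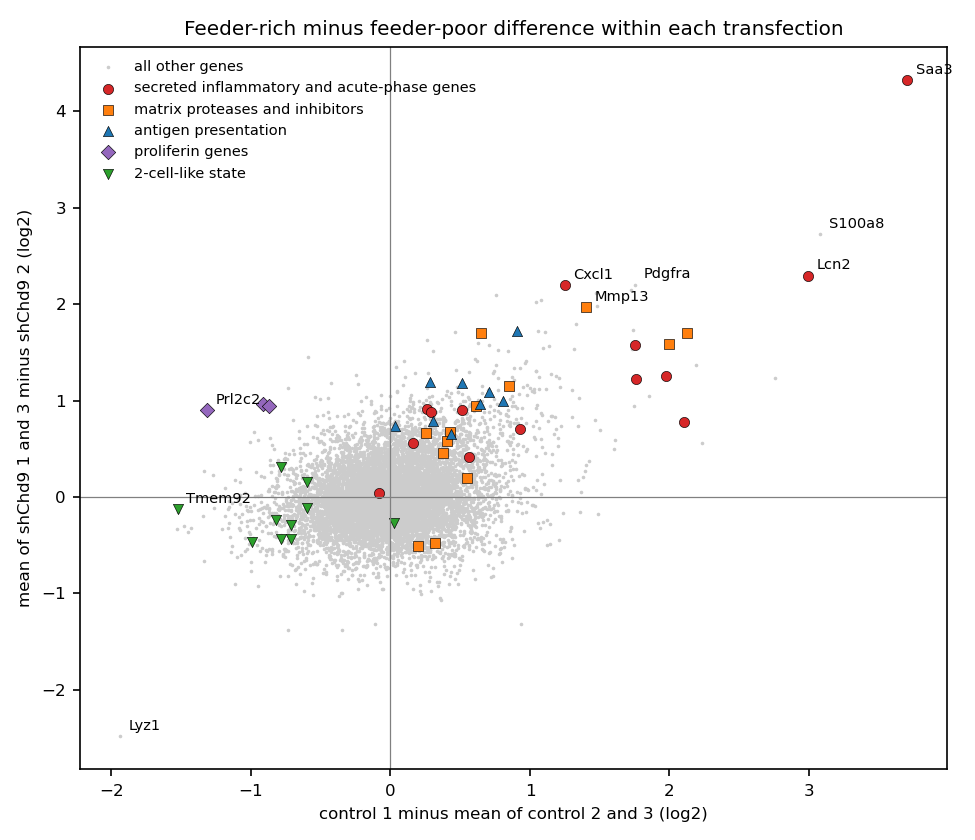
Log2 difference between feeder-rich and feeder-poor arrays within the control transfections (x axis, control 1 minus the mean of controls 2 and 3) and within the shChd9 transfections (y axis, mean of shChd9 1 and 3 minus shChd9 2), 1 point per gene, marker genes left out. Saa3, S100a8 and Lcn2 lie at the upper right, the proliferin genes at the upper left and most 2-cell-like genes left of 0.

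Secreted inflammatory and acute-phase genes showed the largest differences. All 14 tested genes of that list had a positive difference, with a median of 1.13 against -0.02 over all genes. Of the 14, 7 were higher without overlap, against 7.53% over all genes. Saa3, which encodes an acute-phase serum amyloid A protein, measured 12.02, 11.17 and 9.38 on the feeder-rich arrays, against 8.74, 6.37 and 6.19 on the feeder-poor arrays, a 13.5-fold difference of means. That fold was 8.10 on the deposited values without background correction, 24.0 without control 3, 22.7 without shChd9 3 and 39.8 without both. Lcn2, which binds iron-carrying siderophores, measured 10.89, 9.76 and 7.60, against 6.86, 6.95 and 6.67. Its difference was 1.86 without shChd9 1 and 3.51 without shChd9 3. S100a8, a calcium-binding antimicrobial protein outside the list, measured 8.96, 8.20 and 6.19, against 5.77, 4.85 and 4.47, and was detected on 2 of the 3 feeder-poor arrays. Its difference was 2.76, against 1.44 on the deposited values, 2.15 without shChd9 1 and 3.58 without shChd9 3. Saa3 lay at 3 levels, with shChd9 1 and control 1 on top, shChd9 3 and control 3 between, and shChd9 2 and control 2 at the bottom, while Lcn2 was high on shChd9 1 and control 1 and within 1 of the lowest array on the rest.

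Chemokines differed less and more evenly. Cxcl1, a neutrophil attractant, measured 10.95, 10.12 and 9.92, against 9.43, 8.24 and 8.31, and Ccl7, a monocyte attractant, measured 11.39, 11.39 and 11.01, against 10.45, 9.63 and 8.83. Ccl2, a second monocyte attractant, measured 9.03, 9.11 and 8.07, against 8.07, 7.32 and 6.63, so that shChd9 3 and control 3 were level and the groups met. Slpi, a secreted protease inhibitor, measured 7.86, 7.0 and 4.55, against 5.31, 4.94 and 4.74. Slpi was high on shChd9 1 and control 1 only, and it and Ccl2 are named after their values were seen. Ptges, the prostaglandin E synthase, differed by 1.56 and the groups did not overlap. Cck, the peptide hormone cholecystokinin, was higher by 2.01 and measured 8.37, 7.28 and 7.10, against 5.71, 5.59 and 5.40.

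Of 12 macrophage and blood markers, 11 were on the array and 2, Cd14 and Aif1, passed the detection filter of 3 arrays. The other 9 were detected on 1 or 2 arrays, or on none for 5 of them. The summed linear level of the 2 was 66.4 to 104 on the feeder-rich arrays and 44.3 to 65.1 on the feeder-poor arrays. Cd14, an endotoxin co-receptor, measured 6.20, 5.81 and 4.88, against 4.45, 5.01 and 5.26. The highest Cd14 values were on shChd9 1 and control 1, the arrays with the highest Saa3, Lcn2 and Slpi. Aif1, the other tested gene, differed by 0.18 with overlap and did not share this order. Aif1 was highest on shChd9 3, at 5.21, and control 1 lay below shChd9 2 and control 2. Lyz1, whose near-identical neighbour Lyz2 is on the list, was highest on shChd9 2 and control 2, at 7.83 and 7.54. The part of macrophages or blood cells in the Saa3, Lcn2 and Slpi levels was not tested.

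Genes of antigen presentation and of the interferon response were higher on the feeder-rich arrays. In the antigen presentation list 6 of 9 tested genes were higher without overlap, against 7.53% over all genes, and none was lower. The median difference was 0.87. In the interferon list 6 of 10 were higher without overlap, against the same 7.53%, and none was lower. The median was 0.55. H2-K1, a class I heavy chain, measured 8.36, 7.71 and 7.76, against 7.15, 6.33 and 6.45, and B2m, the light chain of class I proteins, measured 14.03, 13.48 and 13.62, against 13.37, 12.86 and 12.30. Tap1, a peptide transporter subunit, differed by 0.92 and Psmb8, an immunoproteasome subunit, by 0.93, both without overlap. H2-D1, a second heavy chain, differed by 0.94 with control 3 above control 1, and by up to 1.68 on its other probes. Class I heavy chain genes are closely similar copies of each other, so a probe may read several of them. A second H2-K1 probe differed by 0.65.

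Among interferon-induced genes, Usp18, which removes the ubiquitin-like protein ISG15, measured 7.55, 7.30 and 6.90, against 6.82, 6.30 and 5.71, and a second Usp18 probe differed by 0.09. Isg15 itself measured 6.43, 6.26 and 6.29, against 5.82, 5.27 and 5.74. Gbp2, a guanylate-binding protein, differed by 0.95 but its groups overlapped. The median difference of the antigen presentation list was 1.00 within shChd9 samples and 0.51 within control samples, and that of the interferon list was 0.64 within shChd9 samples and 0.48 within control samples.

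The promoters of Cxcl1, H2-K1, B2m and Isg15 are printed because they carry, in lists that differed between the groups, the letters bound by 2 well-known factors. Each run is 300 bases in RefSeq's GRCm38.p6 assembly, from 250 bases before the gene's start to 50 after it, 5′ to 3′ on the gene's strand. Capitals mark matches on either strand to the kB motif, the site of NF-kappa-B, and to the core of the interferon-stimulated response element (ISRE), 2 copies of GAAA with any 2 bases between them. The promoters lie at chr5:90890995-90891294 (plus strand, Cxcl1), chr17:34000298-34000597 (minus strand, H2-K1, 1 of 2 listed), chr2:122147437-122147736 (plus strand, B2m) and chr4:156200769-156201068 (minus strand, Isg15).
Cxcl1: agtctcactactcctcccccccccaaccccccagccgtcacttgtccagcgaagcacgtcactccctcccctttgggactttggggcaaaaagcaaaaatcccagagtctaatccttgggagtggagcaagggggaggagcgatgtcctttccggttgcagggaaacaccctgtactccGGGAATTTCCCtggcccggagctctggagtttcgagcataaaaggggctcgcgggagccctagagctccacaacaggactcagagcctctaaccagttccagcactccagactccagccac
H2-K1: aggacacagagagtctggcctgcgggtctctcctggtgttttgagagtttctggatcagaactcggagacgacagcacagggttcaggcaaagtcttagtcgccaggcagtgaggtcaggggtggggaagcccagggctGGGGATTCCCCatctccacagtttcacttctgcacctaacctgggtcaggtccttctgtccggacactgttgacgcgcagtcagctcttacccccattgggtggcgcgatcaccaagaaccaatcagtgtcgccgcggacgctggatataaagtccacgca
B2m: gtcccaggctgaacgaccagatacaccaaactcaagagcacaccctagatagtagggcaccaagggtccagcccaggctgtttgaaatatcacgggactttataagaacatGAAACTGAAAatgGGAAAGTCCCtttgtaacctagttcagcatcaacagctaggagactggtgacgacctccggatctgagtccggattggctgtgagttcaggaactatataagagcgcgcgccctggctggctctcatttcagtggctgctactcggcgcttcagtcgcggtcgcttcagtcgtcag
Isg15: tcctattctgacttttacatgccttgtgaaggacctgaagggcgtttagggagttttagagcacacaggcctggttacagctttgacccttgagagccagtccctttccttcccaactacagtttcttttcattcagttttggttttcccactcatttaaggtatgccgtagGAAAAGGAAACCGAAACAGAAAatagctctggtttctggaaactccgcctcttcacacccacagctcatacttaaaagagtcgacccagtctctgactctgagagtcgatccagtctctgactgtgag

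The kB motif was in 8.46% and an ISRE core in 3.44% of all 32851 promoters of that table. These shares count single promoters, whereas a list entry was counted when any of its listed promoters held the motif. The shares and the list counts are thus not directly comparable. Of the inflammatory list, 14 of 20 entries had a promoter in the table, and 5 held a kB motif and 2 held an ISRE core. Of the antigen presentation list, 9 had a promoter, and 3 held a kB motif and 2 held an ISRE core. Of the interferon list, 12 had a promoter, and 5 held a kB motif and 8 held an ISRE core. Isg15 held 3 overlapping ISRE cores, and B2m held 1 match to each motif side by side. These are matches of letters, and no binding was measured here.

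Matrix proteases were the next group. Of 13 tested proteases and inhibitors 7 were higher without overlap and none was lower, 4 of them by 2-fold or more, with a median of 0.67. Over all genes 7.53% were higher without overlap, and 0.55% were so by 2-fold or more. Mmp3, a stromelysin, measured 12.17, 11.48 and 10.49, against 9.90, 9.74 and 9.06, and Mmp10, a related stromelysin, measured 10.39, 10.18 and 8.58, against 8.55, 7.78 and 7.57. Mmp13, a collagenase, measured 13.22, 12.75 and 12.74, against 12.29, 11.01 and 10.41. All 3 followed the order of the marker mean, with the largest step between control 1 and shChd9 3 for Mmp3 and Mmp10 and between control 3 and shChd9 2 for Mmp13. A dimmer Mmp13 probe differed by 0.22. Serpinf1, a secreted serpin, differed by 1.21 but overlapped, since control 3 lay above control 1, and a second probe differed by -0.06.

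Structural matrix genes other than the markers differed less. Of 19 matrix proteins and enzymes 7 were higher without overlap and none was lower, with a median of 0.42. Of 4 further collagens 1 was higher without overlap, with a median of 0.39. Over all genes the share higher without overlap was 7.53%. Thbs2, thrombospondin 2, measured 10.31, 9.44 and 9.32, against 9.14, 7.79 and 7.64, with control 3 close to the feeder-rich arrays. Prelp, a leucine-rich matrix proteoglycan, measured 7.61, 7.04 and 6.32, against 5.95, 5.23 and 4.65. Col6a1, a chain of the microfibrillar collagen VI, measured 8.65, 8.20 and 7.64, against 7.36, 6.89 and 6.67, and a second Col6a1 probe differed by 0.71. Prelp and Col6a1 followed the order of the marker mean. Bgn, a small proteoglycan, differed by 0.72 with control 3 above control 1.

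Surface proteins and transcription factors of mesenchyme followed. In the fibroblast surface list 7 of 16 genes were higher without overlap, against 7.53% over all genes, and none was lower. The median was 0.51. Pdgfra, a receptor for platelet-derived growth factor, measured 7.94, 7.66 and 7.32, against 6.87, 5.43 and 4.95, a 3.71-fold difference of means that was 1.95-fold on the deposited values without background correction. S100a4, a calcium-binding protein of motile fibroblasts, was detected on all feeder-rich arrays and on no feeder-poor array, and was at least 1.43-fold higher. Of 10 mesenchymal transcription factors 3 were higher without overlap, against the same 7.53%, and none was lower. Their median was 0.57. Prrx1, a homeobox factor of limb and connective tissue, measured 8.01, 7.30 and 7.17, against 6.999, 5.88 and 5.38. Twist1, a helix-loop-helix factor of mesoderm, differed by 1.12 without overlap, and its paralogue Twist2 differed by 1.14 with overlap, since control 3 lay above control 1. Of 17 Hox genes none was free of overlap, and their median was 0.13.

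Growth factors and their modulators had more higher than lower members. Of 17 growth factor genes 5 were higher without overlap, against 7.53% over all genes, and none was lower, with a median of 0.44. Fgf7, the epithelial mitogen keratinocyte growth factor, measured 10.44, 9.996 and 9.68, against 9.31, 8.49 and 8.42, and Igfbp4, an insulin-like growth factor binding protein, measured 10.91, 10.12 and 9.67, against 9.38, 8.99 and 8.78. Grem1, a secreted BMP antagonist, measured 10.74, 10.35 and 9.11, against 9.18, 8.82 and 8.92, and was high on shChd9 1 and control 1 alone. Inhba, which encodes the activin A subunit, differed by 0.83 without overlap. Of 13 stromal modulators of TGF-beta and Wnt signalling 6 were higher and 1 lower without overlap, with a median of 0.75. The 1 lower stands near the 7.71% lower over all genes, of which 7.53% were higher. Among the 6 were Fst, the activin antagonist follistatin, at 1.10, Tgfbr2, a TGF-beta receptor, at 0.90 and Wnt5a, a Wnt ligand, at 0.81.

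LIF pathway genes had a median difference of 0.00, with 1 of 10 higher without overlap, near the 7.53% over all genes. That gene was Osmr, the oncostatin M receptor, which measured 7.56, 7.03 and 6.68, against 6.25, 6.05 and 5.86. Lif itself, the cytokine that holds mouse stem cells undifferentiated, measured 7.33, 6.73 and 6.68, against 6.69, 6.48 and 6.29, and control 3 lay within the feeder-rich range. Lifr, its receptor, differed by -0.37 with overlap. LIF was also added to the medium of every culture.

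Lysosomal and cathepsin genes were higher in 5 of 16 cases without overlap, against 7.53% over all genes, with a median of 0.33. That median was 0.52 within shChd9 samples but 0.04 within control samples. Ctsk, a collagen-degrading cathepsin, measured 7.62, 6.68 and 7.14, against 5.75, 5.84 and 5.41, and Ctsb, a general cathepsin, differed by 0.77. Contractile genes had a median of 0.12 and 3 of 15 higher without overlap, against 7.53% over all genes. Among the 3 was Tpm2, a tropomyosin, at 0.68 on 1 probe and 0.05 on another. Among 16 genes of the p53 response and cell cycle inhibitors, 2 were higher without overlap, Cdkn1a, encoding p21, at 0.76 and Cdkn2b, encoding p15, at 0.60, and the list's median was 0.07, so that its 2 of 16 stands near the 7.53% over all genes. Tmem176b and Tmem176a, neighbouring genes for membrane proteins, differed by 1.79 and 1.56.

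**Figure D3:**
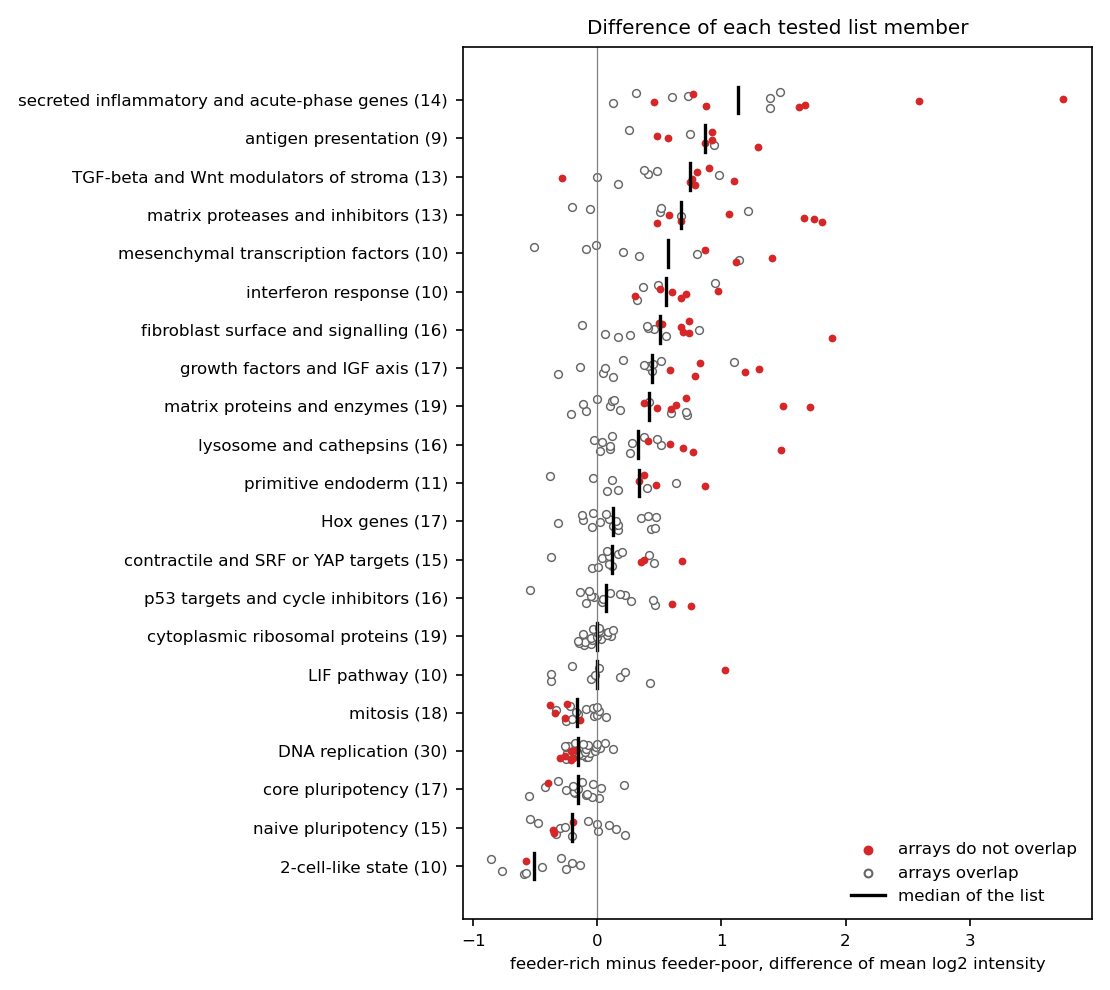
Feeder-rich minus feeder-poor difference of mean log2 intensity (x axis) for each tested gene of 21 lists (y axis, number of tested genes in parentheses); filled points mark genes whose 3 feeder-rich and 3 feeder-poor arrays do not overlap, open points those that overlap, and the bar is the median of the list. Medians run from 1.13 for inflammatory genes at the top to -0.51 for 2-cell-like genes at the bottom, with ribosomal protein genes at 0.00.

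Core and naive pluripotency genes differed little and mostly in the opposite direction. Of 17 core pluripotency genes 14 had a negative difference, 1 was lower without overlap, near the 7.71% over all genes, and the median was -0.16. Pou5f1, the octamer-binding factor of pluripotent cells, measured 12.18, 12.24 and 12.02, against 11.89, 12.36 and 12.15, and Nanog, a homeobox factor of the same circuit, measured 11.49, 12.23 and 11.89, against 11.89, 11.86 and 11.98. Sox2, the partner of Pou5f1, measured 8.32, 8.14 and 7.63, against 8.23, 8.58 and 8.94, and control 3 lay within the feeder-rich range and a second Sox2 probe differed by 0.20. Pou5f1 and Nanog thus had no order by group. Of 15 naive pluripotency genes 3 were lower without overlap, against 7.71% over all genes, and none was higher. Their median was -0.20. Zfp42, a zinc finger protein of naive cells, measured 11.55, 11.65 and 11.77, against 11.96, 11.93 and 12.14, and Tbx3, a T-box factor, differed by -0.35. Of 9 formative and primed epiblast genes 7 had a positive difference, with a median of 0.26, and 1 was higher without overlap, near the 7.53% over all genes. That gene was Mixl1, a homeobox gene of the primitive streak, which was detected on all feeder-rich and no feeder-poor arrays and was at least 1.13-fold higher.

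Genes of cell division were slightly lower on the feeder-rich arrays. Of 18 mitosis genes 5 and of 30 DNA replication genes 6 were lower without overlap, against 7.71% over all genes. None was higher, and both medians were -0.16. The mitosis median was -0.20 within shChd9 samples and -0.13 within control samples. For DNA replication it was -0.27 within shChd9 samples but -0.01 within control samples. Cenpa, the centromeric histone, measured 12.86, 12.77 and 12.98, against 13.15, 13.17 and 13.31, and Mcm4, a helicase subunit, measured 12.61, 12.59 and 12.58, against 12.94, 12.84 and 12.90. On these probes the groups did not overlap and the differences were -0.34 and -0.30, but a second Cenpa probe differed by 0.18 in the other direction. Of 19 cytoplasmic ribosomal protein genes none was free of overlap and the median was 0.00.

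Genes of the 2-cell-like state, in which a small share of cultured stem cells is found at any time, had a median difference of -0.51. The difference was negative in 10 of 10 tested genes, but 1 of them was free of overlap, near the 7.71% over all genes. Zscan4c, a zinc finger protein that marks this state, measured 11.30, 12.00 and 12.92, against 13.25, 12.35 and 12.39, and Tcstv3, a gene of the same state, measured 8.51, 9.29 and 10.34, against 10.54, 9.88 and 10.02. Both were lowest on shChd9 1 and control 1 and highest on control 3 and shChd9 3, so they followed the pair of arrays and not the group. The median was -0.25 within shChd9 samples and -0.75 within control samples. Zscan4 and Tcstv genes are members of multigene families, so their probes may read several copies.

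Proliferin genes, prolactin relatives made by growing fibroblasts and placenta, separated 2 of the arrays from the rest without regard to the group. Prl2c3 measured 8.56, 8.46 and 11.43, against 10.74, 9.03 and 8.0. Prl2c2 measured 8.87, 8.56 and 11.34, against 10.97, 9.20 and 8.78. Both were highest on shChd9 3 and control 3, the pair on either side of the boundary. The list's median of 0.21 covered 0.94 within shChd9 samples and -0.91 within control samples, and without single arrays it ranged between -0.75 and 0.97. These genes are near-identical copies, and their probes may not tell them apart. Thy1, among the markers, had the same 2 highest arrays.

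**Figure D4:**
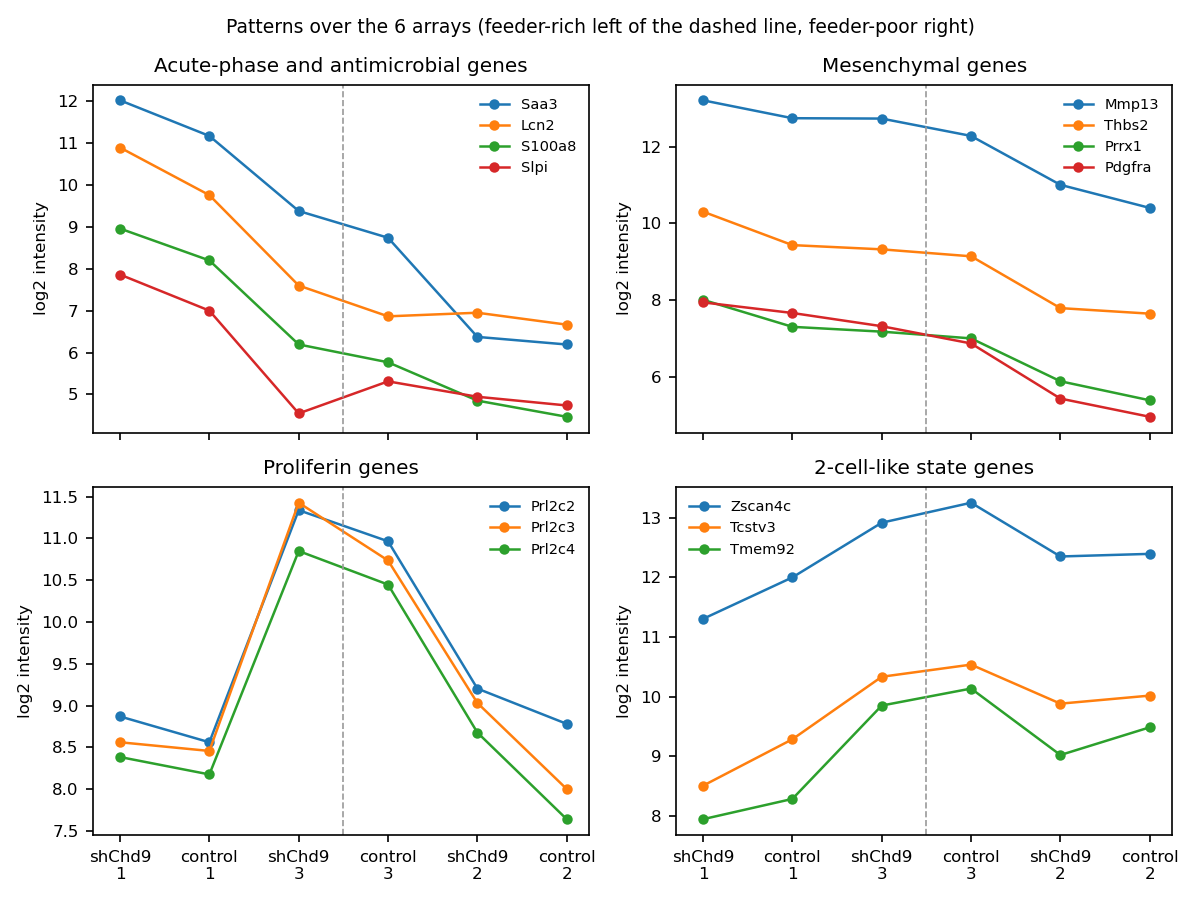
Log2 intensity (y axes) of acute-phase and antimicrobial, mesenchymal, proliferin and 2-cell-like genes on the 6 arrays (x axes), ordered by the marker mean with the feeder-rich arrays left of the dashed line; each line is 1 gene. Slpi and Lcn2 are high on shChd9 1 and control 1, and Mmp13, Thbs2, Prrx1 and Pdgfra drop most after control 3. The proliferin genes peak on shChd9 3 and control 3.

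The arrays also formed pairs over all genes. The root mean square log2 difference over 10183 genes was 0.336 between shChd9 2 and control 2, 0.342 between shChd9 3 and control 3 and 0.361 between shChd9 1 and control 1, and each array's closest neighbour was the array of the other transfection with the same number. The pair shChd9 3 and control 3 was thus split by the boundary. The largest difference was 0.525, between shChd9 1 and control 2, the first and the last array in the marker order. On the first principal component, which held 38.5% of the variance, the arrays lay at 27.5, 11.1 and 3.99, against -8.85, -10.4 and -23.3, which is the order of the marker mean. The second, with 23.8%, set shChd9 3 at -22.4 and control 3 at -11.8 against 3.16 to 13.3 for the other arrays. The labels give no batch, plating or fibroblast lot that could be set beside these pairs.

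Epithelial and early lineage genes gave a mixed picture. Krt18 and Krt8, the keratin pair of simple epithelia, were higher by 0.72 and 0.66 without overlap, while Cldn7, a tight junction protein, differed by -0.55 without overlap. Within shChd9 samples Krt18 and Krt8 differed by 0.61 and 0.45, and within control samples by 0.47 and 0.58. Between shChd9 and control samples these keratins differed by 0.71 and 0.61, and neither passed the test given below. Of 11 primitive endoderm genes 4 were higher without overlap, against 7.53% over all genes, with a median of 0.33. The 4 included Dab2, an endocytic adaptor also made outside endoderm, at 0.86 and Col4a1, a basement membrane collagen, at 0.47. Of the 11 tested, 9 had a positive and 2 a negative difference. Sox7, of the same list, differed by 0.40 with overlap, and by -0.24 on a second probe. Gata4, Foxa2, Lamb1, Afp, Ttr and Cubn did not pass the detection filter. Of 12 trophectoderm genes 1 was lower without overlap, near the 7.71% over all genes: Rhox9, a homeobox gene of the reproductive cluster, at -0.43. Among 6 tested endothelial markers none was free of overlap, and 2 had a positive and 4 a negative difference. Pecam1 differed by -0.58, Vwf by -0.49 and Cldn5 by 0.29. Cdh5 and Tie1, which define that type, and Emcn were detected on no array, and Kdr did not pass the filter. Cartilage and bone genes were split, with Sox9, a cartilage regulator, higher by 0.80 and Acan, the cartilage proteoglycan aggrecan, different by -0.87 with 1 of 3 feeder-rich arrays detecting it. Mgp, the matrix Gla protein, measured 11.29, 10.61 and 9.13, against 8.51, 10.38 and 9.71, lowest on shChd9 3 and control 3.

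Most of the genes with the largest negative differences were dim. Of the 20 largest without overlap, between -1.06 and -0.76, 16 had a mean below 7 in both groups, whereas 11 of the 20 largest higher genes had a feeder-rich mean above 8. Gm7609, a predicted gene, measured 5.02, 5.96 and 6.19, against 6.47, 6.98 and 6.90, and was the 1 gene lower by 2-fold without overlap. Clgn, a chaperone of the testis endoplasmic reticulum, measured 6.16, 6.84 and 6.62, against 7.53, 6.95 and 7.92, and its second probe differed by -0.44. Between shChd9 and control samples Clgn differed by -0.85, and it did not pass the test given below. Gdf9, an oocyte growth factor, and H1f1, a linker histone, were detected on all feeder-poor arrays and on no feeder-rich array, and were at least 1.63-fold and 1.56-fold lower. In all, 41 genes were detected on the 3 feeder-poor arrays alone and 37 on the 3 feeder-rich arrays alone. Of the higher ones, Casp4, an inflammatory caspase, was at least 2.12-fold higher and Gzme, a granzyme, at least 1.94-fold.

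Reference genes did not all hold level across the groups. Hprt, the purine salvage enzyme that is widely used for normalization, measured 10.19, 9.83 and 9.61, against 9.25, 8.92 and 8.66, a 1.91-fold difference of means that followed the marker order array by array. Within transfections its difference was 0.98 in shChd9 samples and 0.88 in control samples, and a second Hprt probe differed by 0.50. B2m, given above, also differed without overlap. Actb differed by 0.01, Gapdh by 0.09 and Tbp by 0.09, all with overlap, and other probes gave values down to -0.22 for Actb and -0.10 for Tbp.

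Leaving out shChd9 3 and control 3, the alike pair on either side of the boundary, set shChd9 1 and control 1 against shChd9 2 and control 2, with 1 sample of each transfection in each group. On these 4 arrays 20.6% of genes were higher and 23.2% lower without overlap. All 10 tested interferon genes were then higher without overlap, as were 13 of 14 inflammatory, 8 of 9 antigen presentation and 9 of 13 protease and inhibitor genes. Of the matrix proteins and enzymes 11 of 19 were higher and 1 was lower. Of 17 core pluripotency genes 11, of 10 2-cell-like genes 9 and of 30 DNA replication genes 15 were lower without overlap, and none of these 3 lists had a higher one. Of 15 naive genes 6 were lower and 1 was higher, and of 9 formative genes 1 was lower and 4 were higher. The medians were 1.59 for the inflammatory, 1.10 for the antigen presentation and 0.75 for the interferon list, and -0.27 for core pluripotency, -0.57 for the 2-cell-like state and -0.22 for DNA replication. The proliferin median was -0.01 on these arrays. Saa3 differed by 5.31 on them.

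The labelled comparison, shChd9 against control, bears on how the groups combine with transfection. In limma's moderated test over 10194 genes, 0 passed an adjusted p of 0.05, which is 0.0%, and 524 had an unadjusted p under 0.05. The lowest adjusted p was 0.389, shared by Chd9, whose difference was -1.13 (SE 0.18). All 56 genes at least 2-fold higher on the feeder-rich arrays had a positive shChd9 over control difference. Because 2 of the 3 feeder-rich arrays are shChd9 samples, choosing genes by group favoured that sign, and the count was not tested. This fit did not pair the arrays of the same number, because the labels pair no samples. With the feeder group as a block, 0 genes passed at a lowest adjusted p of 0.802, and 424 had an unadjusted p under 0.05.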

How the data were processed

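Biotin-labelled cRNA of 3 shChd9 and 3 control samples was measured on Illumina bead arrays. The authors deposited, for each probe, a raw intensity and a detection p-value, and a table of quantile-normalized intensity; per the submitters' processing notes, GenomeStudio was among the tools. The marker mean was taken on log2 of the deposited normalized intensity. All other values came from the deposited raw intensity by neqc (limma 3.58.1, R 4.3.3): normexp background correction with negative controls inferred from the detection p-value, an offset of 16, quantile normalization and log2. Probes detected at p under 0.05 on at least 3 arrays were kept, 17719 of 45281. Symbols came from the platform annotation, updated through Entrez numbers to RefSeq: 34885 probes had 1 symbol, 18 several and 10378 none. Each gene was represented by its brightest probe. The groups were set from the data, so their differences are given without a test, and groups were called separate when their 3 and 3 arrays did not overlap. shChd9 and control samples were compared with limma on all kept probes, with Benjamini-Hochberg adjustment over genes. A gene undetected on all arrays of a group has a bound only, set from the lowest detected signal of each array. The number of arrays limits precision. Named genes are the markers, the 20 largest non-overlapping differences each way, up to 4 members of each of 37 lists, and reference and pluripotency genes. The members and lists were chosen with earlier results of these data known. Alternatives were another normalization, filters, probe rules and leaving out arrays.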

Additional observations from a re-analysis of the deposited data

How the results depend on the processing

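The 40 genes named for the largest differences kept their sign under every alternative in which they were measured; 32 of them were measured when detection on all 6 arrays was required. Of 2313 values of named genes under alternatives, 2242 moved by less than the spread between arrays and 71 by more. Small differences could change sign. Without shChd9 3, Prl2c3 went from 0.23 to -0.75 and Prl2c4 from 0.21 to -0.64. Without control 3, Prl2c2 went from -0.06 to 0.60. Of the 20 largest higher genes, the fold moved by over 1.5 times in 10 on the deposited values, in 12 without shChd9 3 and control 3, in 1 without control 3, in 2 without shChd9 1 and in 3 without shChd9 3. The number of genes at least 2-fold higher was 56, and 19 on the deposited normalized values without background correction; over the sets with 1 array left out it ranged from 29 to 125, and it was 169 without shChd9 3 and control 3. The number at least 2-fold lower was 1, and 0 on the deposited values, 2 with median scaling, 1 to 30 with 1 array left out and 24 without shChd9 3 and control 3. Without regard to size, 767 higher genes became 477 with median scaling, 1225 without a detection filter, 1053 to 1438 with 1 array left out and 2101 without those 2 arrays. The 785 lower genes became 1238 without the filter, 1142 to 1613 with 1 array left out and 2359 without those 2 arrays. With median scaling 753 were lower. The grouping kept 4 of 6 arrays with the median over probes. The marker difference between shChd9 and control ranged from 0.01 to 0.24 with 1 array left out. The shChd9 comparison in limma gave 0 genes under every alternative run, with 369 to 1175 genes at an unadjusted p under 0.05 and a lowest adjusted p between 0.238 and 0.9997. No fit with same-numbered arrays as pairs was run, since the numbers follow the deposit order and the labels pair no samples.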

Other observations

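Lyz1, a lysozyme gene with a near-identical neighbour, Lyz2, had the largest negative difference of all genes, -1.90, but its groups overlapped. It measured 4.85, 4.68 and 5.84 on shChd9 1, control 1 and shChd9 3, against 5.69, 7.83 and 7.54 on control 3, shChd9 2 and control 2, and so was high on shChd9 2 and control 2 alone. It is named after its values were seen. Phlda2, an imprinted gene that restrains placental growth, differed by -0.71 without overlap, measuring 8.86, 9.33 and 9.29 on the feeder-rich arrays, against 9.83, 9.48 and 10.29 on the feeder-poor arrays. Plin2, which coats lipid droplets, measured 8.31, 8.25 and 8.91, against 8.41, 7.57 and 6.96, highest on shChd9 3. Axl, a receptor tyrosine kinase, differed by 0.74 and Cav1, a component of membrane caveolae, by 0.82, the second with overlap. Stc1, a secreted glycoprotein hormone, measured 7.80, 7.43 and 5.97, against 5.30, 5.51 and 5.19, and Akr1c18, a steroid dehydrogenase, measured 8.47, 7.78 and 7.32, against 6.40, 6.37 and 5.71. Nrn1, a neurite-promoting surface protein, differed by 1.57. Ugt1a10 differed by 1.43, and its probe may read the exons it shares with the other members of its gene cluster.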
